A study of Arabidopsis thaliana with 12 samples.

Results

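Exons of at most 51 bases that the splicing program rMATS had listed as skipped were described in seedlings of the Arabidopsis thaliana natural accessions Kn-0 and Col-0. They were taken from the deposited tables of skipped exons by length, 1 entry for each exon with its flanking exons, and only where an inclusion level was given in every library. This left 3726 entries in 2163 genes of 19809 skipped exons in Kn-0 and 3466 entries in 2038 genes of 18295 skipped exons in Col-0. Some entries shared an exon with other neighbours, so that the entries covered 3539 exon positions in Kn-0 and 3281 in Col-0. Lengths ran from 4 to 51 bases in Kn-0 and from 2 to 51 bases in Col-0, with medians of 37 and 38 bases.

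The 4 groups were Kn-0 treated with abscisic acid (ABA), Kn-0 mock, Col-0 treated with ABA and Col-0 mock, with 3 biological replicates each and 12 libraries of polyadenylated RNA in all. All seedlings had grown for 4 days on filter paper under continuous light and were whole seedlings moved to medium with 5 µM ABA or to control medium for 3 h. Both accessions carry no named allele or transgene in the labels. ABA is the plant hormone of drought and seed dormancy. Junction reads over the short exons came to between 2450722 and 2477413 per library in Kn-0 ABA and between 2558496 and 2647498 in Kn-0 mock. In Col-0 they came to between 2312705 and 2393872 per ABA library and between 2469076 and 2538793 per mock library. In the authors' deposited table the ABA response genes RD29B and HAI1 were higher under ABA in both accessions, RD29B with a log2 fold change of 6.96 ± 0.071 (SE) in Kn-0 and 6.73 ± 0.247 in Col-0. The shoot markers LHCB1.1 and RBCS1A and the root markers PLT1, CASP1 and IRT1 were all detected in that table. The root markers IRT1 and PLT1 were lower under ABA there, IRT1 with a log2 fold change of -3.40 in Kn-0 and -4.55 in Col-0, and PLT1 with -0.93 in Kn-0 and -1.20 in Col-0. CASP1 was at -0.28 in Col-0 (adjusted p = 0.0185 in the authors' DESeq2 fit) and at -0.13 in Kn-0, which did not pass (adjusted p = 0.198). Their part in the exon results was not tested. Because whole seedlings were pooled, fewer cells of a type and a changed level per cell cannot be told apart.

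A skipped exon is one that some transcripts of a gene carry and others leave out. The spliceosome recognises an exon by the AG that ends the intron before it and by the GT, more rarely GC, that starts the intron after it. Very short exons leave little room between these sites, and their inclusion is known to depend on strong signals in the flanking introns. An exon whose length is not a multiple of 3 shifts the reading frame when it is skipped, which usually brings an early stop codon. The inclusion level used here is the length-corrected share of junction reads that include the exon, between 0 and 1. It compares only the form with this exon and the form without it, so a transcript with a longer or shorter version of the exon is in neither.

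The exons shown first are some of those of at most 15 bases that both accessions included nearly always and that carry the annotated reading frame. Exon bases are in capitals and intron bases in lower case, 5′ to 3′ on the gene's strand. The sequences are those of the RefSeq genome TAIR10.1, which is Col-0.
RNS2 4-base exon, chr2:16592221-16592264, plus strand: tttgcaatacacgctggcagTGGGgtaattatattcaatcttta
AT1G63290 5-base exon, chr1:23473140-23473184, minus strand: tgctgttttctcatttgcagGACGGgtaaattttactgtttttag
PFD1 7-base exon, chr2:3046207-3046253, plus strand: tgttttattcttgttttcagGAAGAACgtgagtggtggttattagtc
VLN3 11-base exon, chr3:21245783-21245833, minus strand: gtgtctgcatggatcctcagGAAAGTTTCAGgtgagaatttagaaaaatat
VLN4 11-base exon, chr4:14757758-14757808, plus strand: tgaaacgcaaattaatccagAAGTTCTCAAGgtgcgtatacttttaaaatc
CCD1 15-base exon, chr3:23453386-23453440, plus strand: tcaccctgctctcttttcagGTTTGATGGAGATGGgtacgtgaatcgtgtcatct

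The next set holds exons of at most 15 bases that were included in only part of the transcripts, and 1 that separated the accessions. Flanks are short where a UTR lies near.
AT5G18230 6-base exon, chr5:6026583-6026612, minus strand: ttttttatgcagTGGAATgtgagcagaatg
KIN11 8-base exon, chr3:11131798-11131827, minus strand: aaattaacaagCTTTTCAGgtaaattgact
Cand1 9-base exon, chr1:21364098-21364126, minus strand: ttttgtttagTTTATGTAGgtaacacgca
AT3G05345 13-base exon, chr3:1523247-1523299, minus strand: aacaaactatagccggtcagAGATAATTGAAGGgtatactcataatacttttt
AT2G36670 15-base exon, chr2:15367393-15367421, minus strand: gttgcagCTCCAAGATGACTATgtatgtc
VAB2 14-base exon, chr4:18014895-18014924, minus strand: attgatagAGCTCTAAAATTGGgtaaaatg

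The longest set holds exons whose inclusion differed between the accessions or between ABA and mock in one of the tests given below. In SCA3, a pair of exons begins at the same acceptor and ends at donors 2 bases apart. The exons of AT1G15200 and AE7 end at a GC donor instead of GT. For AGL65 the call was in Kn-0, without a tested match in Col-0, and the 19-base exon of Col-0 is printed.
SCA3 51-base exon, chr2:10251270-10251360, minus strand: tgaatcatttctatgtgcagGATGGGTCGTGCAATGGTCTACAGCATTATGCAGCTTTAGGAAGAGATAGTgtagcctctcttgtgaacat
SCA3 49-base exon, chr2:10251272-10251360, minus strand: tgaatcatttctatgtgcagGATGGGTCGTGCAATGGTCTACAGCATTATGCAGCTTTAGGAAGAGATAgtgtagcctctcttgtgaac
FSD2 27-base exon, chr5:20773751-20773779, minus strand: gCCACTTCTCACCATTGATACCTGGGAGg
AT5G50330 48-base exon, chr5:20487642-20487729, minus strand: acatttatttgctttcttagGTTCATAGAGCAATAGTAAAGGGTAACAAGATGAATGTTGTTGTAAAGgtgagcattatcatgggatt
AT1G15200 51-base exon, chr1:5229161-5229251, minus strand: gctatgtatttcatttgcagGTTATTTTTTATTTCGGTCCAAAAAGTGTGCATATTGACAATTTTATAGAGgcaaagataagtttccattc
AT5G53850 48-base exon, chr5:21863633-21863720, minus strand: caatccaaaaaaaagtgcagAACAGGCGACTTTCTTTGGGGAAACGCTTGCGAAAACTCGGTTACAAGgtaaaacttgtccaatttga
AE7 42-base exon, chr1:25600968-25601049, plus strand: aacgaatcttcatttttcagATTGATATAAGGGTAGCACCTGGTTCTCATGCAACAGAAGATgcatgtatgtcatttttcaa
AGL65 19-base exon, chr1:6468037-6468095, plus strand: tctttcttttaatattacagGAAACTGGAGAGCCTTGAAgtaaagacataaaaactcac

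Short skipped exons fell mostly at the ends of the scale. Of those that reached 10 junction reads in each of the 6 libraries, 3445 in Kn-0 and 3159 in Col-0, 52.2% in Kn-0 mock and 52.8% in Col-0 mock were included at a level over 0.9. A further 40.3% in Kn-0 mock and 38.9% in Col-0 mock were included at under 0.1. Levels from 0.1 to 0.9 were seen for 7.58% in Kn-0 and 8.29% in Col-0. Under ABA the shares were 51.96%, 39.97% and 8.07% in Kn-0 and 52.4%, 38.8% and 8.80% in Col-0. Among skipped exons over 51 bases, more stood at a level over 0.9, 64.2% of 14917 in Kn-0 mock and 63.7% of 13450 in Col-0 mock. These shares describe the lists and were not tested, since entries of 1 gene share reads.

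Median levels differed between the length classes. Exons of at most 15 bases had a median level of 0.0185 in Kn-0 ABA, 0.017 in Kn-0 mock, 0.058 in Col-0 ABA and 0.0467 in Col-0 mock, over 220 exons in Kn-0 and 198 in Col-0. Exons of 16 to 30 bases had medians of 0.617 in Kn-0 ABA, 0.588 in Kn-0 mock, 0.552 in Col-0 ABA and 0.562 in Col-0 mock. Those of 31 to 51 bases stood at 0.974 in Kn-0 ABA, 0.975 in Kn-0 mock, 0.970 in Col-0 ABA and 0.972 in Col-0 mock. The medians of the classes lay far apart, while ABA and mock lay close together within each class. Within the shortest class the levels did not follow length in 1 direction. Its low median came from the longer members: for single lengths from 12 to 15 bases the mock medians lay between 0.00233 and 0.017 in Kn-0 and between 0.004 and 0.044 in Col-0. Exons of 9 and 10 bases had mock medians of 0.983 and 0.989 in Kn-0 and 0.988 and 0.976 in Col-0. At 8 and 11 bases the medians of the accessions' lists differed, with 0.0668 and 0.007 in Kn-0 and 0.976 and 0.949 in Col-0, on 10 and 19 exons in Kn-0 and 15 and 15 in Col-0. At 5 and 6 bases the mock medians were 0.96 and 0.984 in Kn-0, over 7 exons each, and 0.36 and 0.118 in Col-0, over 9 and 10 exons. These lists were not matched exon by exon, and most exons lay at either end, so a few exons can move such a median. At 8 bases, 4 exons were over 0.9 and 5 under 0.1 in Kn-0, against 8 and 6 in Col-0. Over the matched short exons tested, mock levels had a Pearson r of 0.995 between the accessions. Just inside the length limit, exons of 49 to 51 bases had a mock median of 0.989 in Kn-0, and just outside it those of 52 to 54 bases had one of 0.992. The share with a length divisible by 3 was 35.4% in Kn-0 and 35.9% in Col-0, and 35.8% and 35.4% among longer exons. It was 41.8% in Kn-0 and 40.9% in Col-0 among exons of at most 15 bases.

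**Figure D1:**
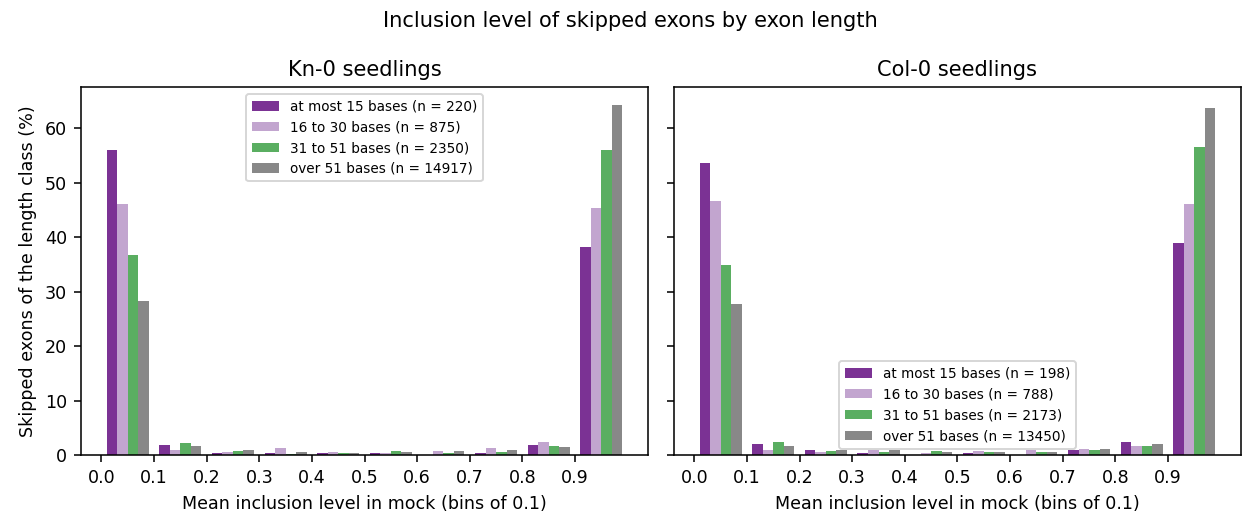
Percentage of skipped exons (y axis) in each bin of 0.1 of the mean mock inclusion level (x axis, n = 3 libraries), in Kn-0 (left) and Col-0 (right), with 1 bar colour per length class and the number of exons in the legend. Every length class is high at both ends and low between. Exons of at most 15 bases have their highest bar in the lowest bin, as do, by a small margin, those of 16 to 30 bases.

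Exons that were nearly always skipped were mostly unknown to the annotation. In Col-0, whose coordinates are those of TAIR10.1, 3208 of the 3466 entries (92.6%) had AG before and GT after the exon, 88 had AG and GC, and 170 had other bases. Both junctions of the included form were annotated for 908 entries (26.2%) and the junction of the skipping form for 1556. Of the 1667 exons with a mock level over 0.9, 737 (44.2%) had an annotated included form. Of the 1230 with a level under 0.1 only 44 (3.58%) did, while 1216 had an annotated skipping form. The 262 exons between 0.1 and 0.9 had an annotated included form in 91 cases (34.7%) and both forms annotated in 82.

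The exons at the 2 ends differed in position and in the reading frame as read from annotated transcripts. Among exons under 0.1, 330 lay in the 5′ UTR, against 46 of those over 0.9 and 83 of those between. A reading frame could be followed from the annotated start with and without the exon for 1469 exons over 0.9, and in 1136 of them it ran longer with the exon. It could be followed for 858 exons under 0.1, and in 662 of them it ran shorter with the exon. This contrast is bound up with annotation. Where the included form was annotated, the frame ran longer with the exon in 710 of 742 exons. Where it was not, the frame ran longer in 707 and shorter in 1021 of 1736. The median GC content was 42.9% for exons over 0.9 and 37.5% for exons under 0.1, and the median intron before them was 113 bases for exons over 0.9 and 138.5 bases for exons under 0.1. An entry over 0.9 without annotation can be a version of an annotated exon with another end, and its level then says only how seldom the skipping junction was seen. In VLN3, a 6-base version had 152 including reads in Kn-0, beside 5623 for the annotated 11-base exon.

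A group of very short exons was seldom skipped in either accession. Of the exons of at most 15 bases that could be matched between the accessions, 66 in 62 genes had at least 10 reads in every library. Of these, 29 in 27 genes were over 0.9 in all 4 groups, 26 were under 0.1 in all 4 groups and 11 were in neither class. All 66 had AG before and GT after the exon. An included form was annotated for 12 of the 29 and for 0 of the 26. For a version without annotation, the level may say only how seldom the skipping junction was seen. In VLN4, an 8-base version had 417 including reads in Kn-0, beside 3668 for the annotated 11-base exon. The counts that follow hold both kinds. Only 7 of the 29 included exons had a length divisible by 3, against 12 of the 26 skipped ones. The reading frame was longer with the exon in 23 of the 28 included exons where it could be followed, and shorter with the exon in 12 of 15 skipped ones. These frames too were read from annotated transcripts. The exons named in the next paragraph were chosen from the 29 after their values were seen.

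The shortest was the 4-base exon of RNS2, an S-like ribonuclease, shown first above. Its level lay between 0.981 and 0.987 in the 6 Kn-0 libraries and between 0.97 and 0.983 in the 6 Col-0 libraries. It rested on 6808 including and 108 skipping reads in Kn-0 and on 5331 and 125 in Col-0. With these 4 bases the frame from the annotated start is 259 codons long, and without them 154. The 5-base exon of AT1G63290 was at 0.998 to 1 in both accessions, with 2 skipping reads in Kn-0 and 1 in Col-0, and its frame is 227 codons with and 44 without it. PFD1, a subunit of the prefoldin chaperone, had its 7-base exon at 0.99 to 1 in Kn-0 and 0.994 to 1 in Col-0, for 128 codons with and 64 without it. The villins VLN3 and VLN4, which bind and bundle actin filaments, both have an 11-base exon, and in each it was nearly always included. VLN3 ranged from 0.994 to 1 in Kn-0 and from 0.996 to 1 in Col-0, and VLN4 from 0.998 to 1 in Kn-0 and from 0.995 to 1 in Col-0. Skipping would leave 633 of 965 codons in VLN3 and 636 of 974 in VLN4. CCD1, a carotenoid cleavage dioxygenase, had the deepest coverage, with 15768 including and 17 skipping reads in Kn-0 and 16010 and 8 in Col-0. Its 15 bases keep the frame, so that 538 codons stand against 533. No library of either treatment had any of these 6 exons below a level of 0.97.

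Only a few exons of at most 15 bases had levels between the ends in both accessions, and they spanned coding and 5′ UTR positions. The 6-base exon of AT5G18230, a gene of the NOT2/NOT3/NOT5 family of the mRNA deadenylation complex, adds 2 codons to 843. Its level was 0.188, 0.256 and 0.227 in Kn-0 ABA against 0.219, 0.227 and 0.218 in Kn-0 mock. It was 0.279, 0.246 and 0.249 in Col-0 ABA against 0.21, 0.232 and 0.234 in Col-0 mock. All 12 libraries included it at a low share. In Col-0 the 3 ABA libraries lay above the 3 mock libraries, and in Kn-0 the groups overlapped. The 15-base exon of AT2G36670, an aspartyl protease, adds 5 codons to 507 and was the form that prevailed. It stood at 0.823, 0.819 and 0.7 in Kn-0 ABA against 0.852, 0.917 and 0.786 in Kn-0 mock, and at 0.695, 0.713 and 0.862 in Col-0 ABA against 0.681, 0.713 and 0.764 in Col-0 mock. The groups overlapped in both accessions.

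The SnRK1 kinase KIN11, a sensor of cellular energy, had an 8-base exon in its 5′ UTR that was mostly left out. Its level was 0.102, 0.123 and 0.224 in Kn-0 ABA against 0.108, 0.074 and 0.153 in Kn-0 mock, and 0.107, 0.101 and 0.094 in Col-0 ABA against 0.108, 0.187 and 0.18 in Col-0 mock. In Col-0 all 3 ABA libraries lay below the lowest mock library, and in Kn-0 the groups overlapped. Cand1, a candidate G-protein-coupled receptor gene, had a 9-base and a 5-base exon in its 5′ UTR that share their skipping reads. The 9-base exon was at 0.463, 0.359 and 0.423 in Kn-0 ABA against 0.389, 0.272 and 0.389 in Kn-0 mock, and at 0.343, 0.437 and 0.418 in Col-0 ABA against 0.509, 0.583 and 0.521 in Col-0 mock. In Col-0 the groups were apart, with ABA lower, and in Kn-0 they overlapped. The 5-base exon was at 0.27, 0.252 and 0.256 in Kn-0 ABA against 0.168, 0.114 and 0.205 in Kn-0 mock, apart with ABA higher. In Col-0 it was at 0.037, 0.299 and 0.206 in ABA against 0.37, 0.299 and 0.41 in mock, meeting at 0.299 with ABA lower on average. The 13-base exon of AT3G05345, a DnaJ-type chaperone, ranged from 0.601 to 1 within Kn-0 mock alone and from 0.717 to 1 within Col-0 mock. None of these exons passed a test: adjusted p for ABA lay between 0.667 and 0.999 and for the accessions between 0.0946 and 0.943 in the limma refit.

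**Figure D2:**
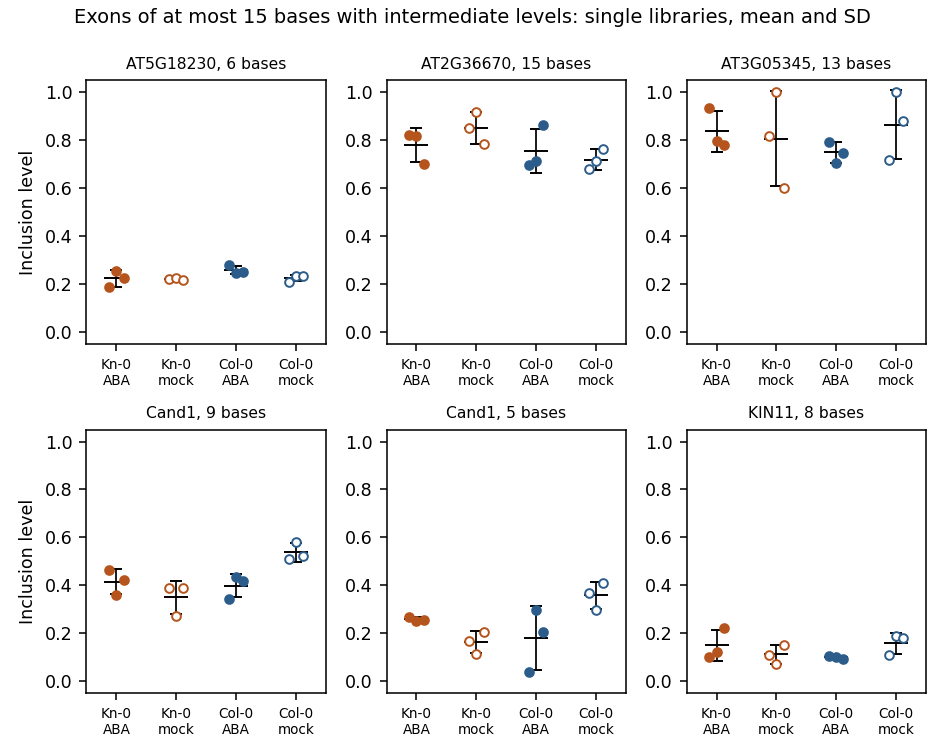
Inclusion level (y axis, 0 to 1) of 6 exons of at most 15 bases in each library, with Kn-0 in orange and Col-0 in blue, ABA as filled and mock as open points, and a bar for the mean ± SD of 3 libraries. The AT5G18230 exon stays between 0.188 and 0.279 in every library, while the AT3G05345 exon spreads from 0.601 to 1.

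For most short exons tested, inclusion under ABA was close to that in mock. The effect was tested on exons that reached 10 junction reads in each library and 10 reads of each form over all of them, 1029 in 690 genes of Kn-0 and 946 in 617 genes of Col-0. A call needed an adjusted p under 0.05 and a difference of mean level of at least 0.1. Levels in ABA and mock were within 0.05 of each other for 926 of these exons (90.0%) in Kn-0 and for 830 (87.7%) in Col-0. The limma refit, with Benjamini-Hochberg adjustment over all 5678 skipped exons tested in Kn-0 and 5201 in Col-0, called 0 short exons in either accession. Over all tested skipped exons it called 0.106% in Kn-0 and 0.135% in Col-0. In simulated data the refit missed most changes of 0.1, so 0 calls do not show that such changes were absent. At an unadjusted p under 0.05 there were 62 short exons of 1029 in Kn-0 and 51 of 946 in Col-0, beside 436 of all 5678 and 340 of all 5201.

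The median level of the tested short exons was 0.19, 0.214 and 0.199 in the Kn-0 ABA libraries against 0.196, 0.182 and 0.197 in Kn-0 mock. That is 0.201 ± 0.0121 in ABA and 0.192 ± 0.0084 in mock (SD, n = 3), with a two-sided exact permutation p of 0.4. In Col-0 the median was 0.2565, 0.2675 and 0.2475 in ABA libraries against 0.2515, 0.2405 and 0.2485 in mock, which gives 0.257 ± 0.0100 in ABA and 0.247 ± 0.0057 in mock (SD, n = 3), with an exact p of 0.3. The groups overlapped in both accessions. With 3 libraries against 3 the smallest p is 0.1. Other read minimums gave mixed results. With no minimum in Kn-0 the groups were apart, at 0.227, 0.252 and 0.232 in ABA against 0.219, 0.207 and 0.219 in mock (difference 0.022, exact p = 0.1). With a minimum of 20 reads in Col-0 they were also apart, at 0.236, 0.246 and 0.2275 in ABA against 0.218, 0.217 and 0.2005 in mock (difference 0.0247, exact p = 0.1). With a minimum of 20 reads in Kn-0 the groups overlapped (difference 0.00667, exact p = 0.4). With no minimum in Col-0 they overlapped too (difference 0.00467, exact p = 0.7). For longer exons the median was 0.168 in ABA and 0.162 in mock in Kn-0 and 0.195 in ABA and 0.193 in mock in Col-0.

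**Figure D3:**
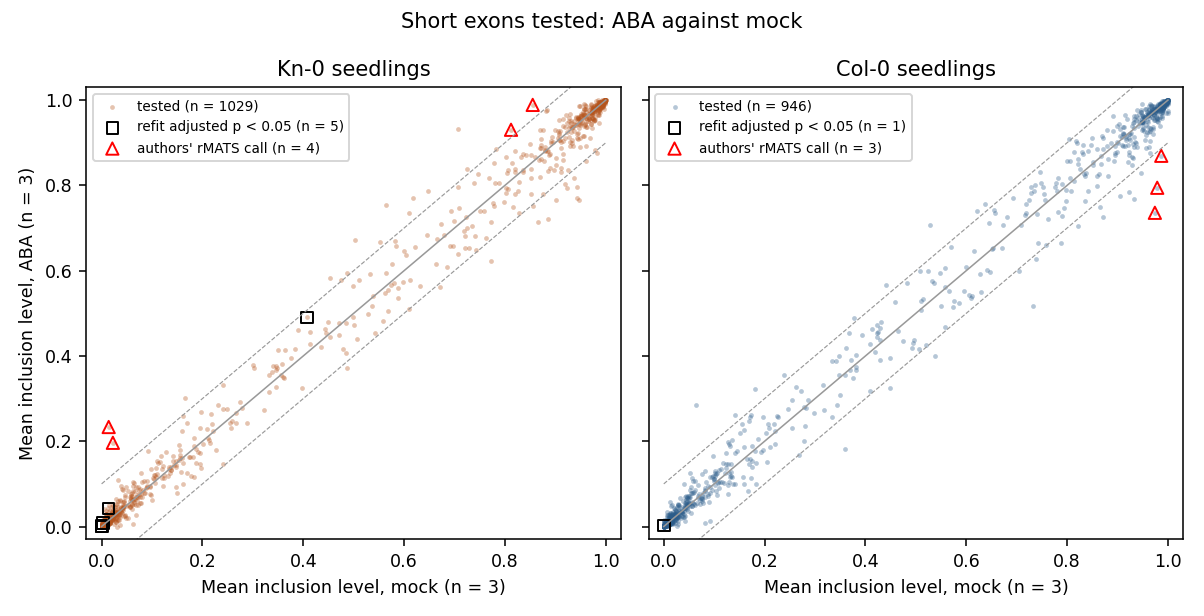
Mean inclusion level under ABA (y axis) against mock (x axis), n = 3 libraries each, for the short exons tested in Kn-0 (left) and Col-0 (right), with dashed lines at a difference of 0.1. Black squares mark adjusted p under 0.05 in the refit (5 in Kn-0 and 1 in Col-0) and red triangles the calls of the authors' rMATS test, and most points lie on the diagonal.

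Without the limit on size, 5 short exons in Kn-0 and 1 in Col-0 had an adjusted p under 0.05 in the limma refit, against 0.423% and 0.308% of all tested exons. They were named after their values were seen, since the naming rule asked for a difference of at least 0.1. The one with graded levels was the 48-base coding exon of AT5G53850, a haloacid dehalogenase-like hydrolase. It was included at 0.496, 0.508 and 0.467 in Kn-0 ABA against 0.449, 0.378 and 0.397 in Kn-0 mock, with no overlap. The log2 odds ratio of inclusion was 0.48 ± 0.10 (SE, adjusted p = 0.0161 in the limma refit). In Col-0 it was 0.44, 0.472 and 0.475 in ABA against 0.435, 0.401 and 0.405 in mock, also without overlap and with ABA higher, at an adjusted p of 0.605 in the limma refit. It passed in Kn-0 only with every library in the fit or without mock library 1 (adjusted p between 0.0569 and 0.314 without another one). The exon adds 16 codons to a frame of 507.

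The others were rare forms. PAS2, a dehydratase of very-long-chain fatty acid synthesis, had a 48-base exon at 0.008, 0.008 and 0.011 in Kn-0 ABA against 0.002, 0.002 and 0.004 in Kn-0 mock (adjusted p = 0.00618 in the limma refit). In Col-0 it was at 0.005, 0.005 and 0.004 in ABA against 0.003, 0.003 and 0.001 in mock, with an adjusted p of 0.742. The gene itself was higher under ABA in the authors' deposited table, with a log2 fold change of 1.07 ± 0.049 (SE) in Kn-0 and 0.94 ± 0.067 in Col-0. A 46-base exon of AT4G25672 was at 0.049, 0.037 and 0.041 in Kn-0 ABA against 0.01, 0.015 and 0.015 in Kn-0 mock (adjusted p = 0.0051 in the limma refit). AT1G51200 had a 36-base exon with 23 including reads in Kn-0 ABA and 0 in Kn-0 mock (adjusted p = 0.0016), and another 50-base exon with 46 in Col-0 ABA and 1 in Col-0 mock (adjusted p = 3.36e-05 in the limma refit). ERD15, an early dehydration-responsive gene, had a 12-base exon with 4 including reads in Kn-0 ABA and 27 in Kn-0 mock (adjusted p = 0.0443 in the limma refit). All of these forms stayed under a level of 0.05 in every library. In an unweighted limma fit none of the 6 passed, with adjusted p between 0.488 and 0.826.

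The authors' deposited table of rMATS tests gave a few more. At the same limits on p and size, with a mean of at least 10 reads per library, it called 4 short exons in Kn-0 and 4 in Col-0, against 0.127% and 0.198% of all skipped exons. The refit passed none of the 8. All 4 in Kn-0 were higher under ABA, and in Col-0 1 was higher and 3 were lower. Among skipped exons of any length that table of the authors called 0.0743% higher and 0.0531% lower in Kn-0, and 0.0698% higher and 0.128% lower in Col-0. They rested on a mean of 18 to 111.5 reads per library.

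AE7, a factor of cytosolic iron-sulfur cluster assembly, had the best covered of them. Its 42-base exon was at 0.958, 0.91 and 0.923 in Kn-0 ABA against 0.789, 0.821 and 0.826 in Kn-0 mock. The authors' deposited table gave an FDR of 0.0196, and the limma refit gave a log2 odds ratio of 1.63 ± 0.46 (SE) with an adjusted p of 0.160. In Col-0 the exon stood at 0.898, 0.885 and 0.859 in ABA against 0.857, 0.847 and 0.82 in mock. ABA was above mock in every library of both accessions. Neither form of this 42-base entry was annotated in Col-0. A 46-base entry of AE7 was at 0.975 in Col-0 ABA and 0.967 in Col-0 mock. The level of the 42-base entry leaves other versions out and need not be the share of transcripts with an exon there.

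DREB2C, a stress factor of the AP2/ERF family, held 2 of the Kn-0 calls, on exons of 50 and 47 bases that share their skipping reads. The 47-base exon was at 0.16, 0.214 and 0.326 in Kn-0 ABA against 0, 0 and 0.042 in Kn-0 mock (FDR 0.00131 in the authors' deposited table, adjusted p = 0.181 in the limma refit). The 50-base exon was at 0, 0.348 and 0.241 in Kn-0 ABA against 0, 0.067 and 0 in Kn-0 mock (FDR 0.0425 in the authors' deposited table). The 47-base groups were apart and the 50-base groups overlapped at 0. In Col-0 the 47-base exon had the opposite sign, at 0.134, 0.053 and 0.115 in ABA against 0.072, 0.132 and 0.218 in mock, with overlap, and the difference of the ABA effects did not pass (adjusted p = 0.9002 in the limma refit). The 50-base exon in Col-0 was at 0.048, 0 and 0.092 in ABA against 0, 0.07 and 0.052 in mock. The 19-base exon of AGL65, a MADS-box gene, was at 1, 1 and 0.966 in Kn-0 ABA against 1, 0.825 and 0.74 in Kn-0 mock (FDR 0.00639 in the authors' deposited table, adjusted p = 0.415 in the limma refit). The 19-base exon printed for Col-0 had mean levels of 0.979 in Col-0 ABA and 0.932 in Col-0 mock.

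In Col-0, the 38-base exon of the kinase gene WNK9 was at 0.633, 0.877 and 0.873 in ABA against 1, 0.936 and 1 in mock, with the groups apart and ABA lower (FDR 0.0237 in the authors' deposited table, adjusted p = 0.690 in the limma refit). The 45-base exon of AT5G02080 was at 0.468, 0.854 and 0.885 in ABA against 0.922, 1 and 1 in mock, also apart (FDR 0.0249 in the authors' deposited table, adjusted p = 0.733 in the limma refit). In both exons 1 ABA library was far below the others. LGT5, a galacturonosyltransferase-like gene, had a 31-base exon at 0.815, 1 and 0.793 in ABA against 0.96, 1 and 1 in mock, with overlap (FDR 0.0496 in the authors' deposited table). In Kn-0 it was at 1, 0.96 and 0.935 in ABA against 0.964, 1 and 0.841 in mock, with overlap and a slightly higher mean under ABA. WNK9 in Kn-0 was at 0.932, 0.939 and 1 in ABA against 1, 1 and 1 in mock. The 34-base exon of AT1G62610 was at 0.282, 0.197 and 0.055 in ABA against 0.036, 0 and 0 in mock (FDR 0.0202 in the authors' deposited table), on as few as 5 reads in a library, too few for the refit. The gene was higher under ABA, with a log2 fold change of 0.99 ± 0.107 (SE) in the authors' deposited table.

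**Figure D4:**
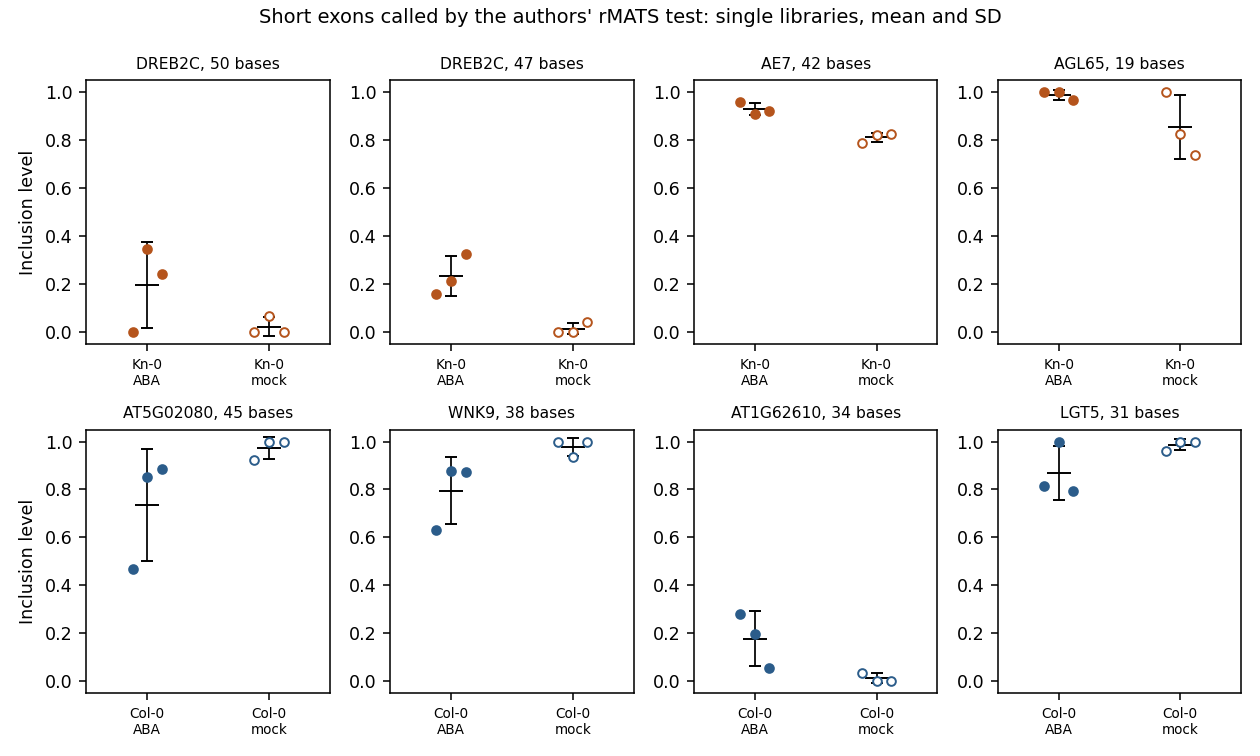
Inclusion level (y axis, 0 to 1) in each library for the 8 short exons called by the authors' rMATS test, 4 in Kn-0 (orange) and 4 in Col-0 (blue), with ABA as filled and mock as open points, and bars for the mean ± SD of 3 libraries. Only the AE7 exon has tight groups, and in the WNK9 and AT5G02080 exons 1 ABA library lies below the others.

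Genes of splicing and of ABA signalling held few of these exons and none was called. Of 20 SR proteins, which bind exons and recruit the spliceosome, 5 had 11 short exons in Kn-0 and 6 had 11 in Col-0, with 2 tested in each. The median ABA minus mock difference was 0.0178 in Kn-0 and 0.00583 in Col-0, beside 0.000333 for all tested exons. The Kn-0 value rests on 2 exons of 1 gene, SCL33. It had a 51-base exon in Kn-0 at 0.02, 0.015 and 0.021 in ABA against 0.005, 0.009 and 0.006 in mock, without overlap and at an adjusted p of 0.475 in the limma refit. Of 18 other splicing and RNA-binding proteins, 7 exons were tested in Kn-0 and 6 in Col-0, with median differences of 0.00567 and -0.005. Among them the exons of PTB3, a polypyrimidine tract-binding protein, stayed between 0.975 and 1. Of 31 core ABA signalling genes, only 2 tested exons in Kn-0 and 1 in Col-0 were found. ABF2, a bZIP factor that binds ABA response elements, had a 33-base exon at 0.048, 0.039 and 0.041 in Kn-0 ABA against 0.023, 0.047 and 0.06 in Kn-0 mock, and at 0.024, 0.056 and 0.026 in Col-0 ABA against 0.036, 0.039 and 0.033 in Col-0 mock. Its groups overlapped, while the gene was higher under ABA with a log2 fold change of 2.09 ± 0.07 (SE) in Kn-0 and 2.001 ± 0.072 in Col-0 in the authors' deposited table.

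Genes that host a tested short exon responded to ABA about as often as all genes with a tested skipped exon, which include them. Of 689 such genes, 318 (46.2%) changed under ABA in Kn-0 at an adjusted p under 0.05, 185 higher and 133 lower, according to the authors' deposited table, against 48.1% of all genes with a tested skipped exon. In Col-0 it was 233 of 615 (37.9%), 154 higher and 79 lower, against 38.2%.

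Between the accessions, a small number of short exons differed by at least 0.1. Kn-0 positions do not follow the build that Col-0 positions fit. Whether the reference or the alignment bears on differences between the accessions was not tested. Of the short exons, 1413 could be matched between Kn-0 and Col-0 by gene, exon length and the lengths of both introns beside it, and 784 of these could be tested. In mock, 89.0% had mean levels within 0.05 of each other, and the median absolute difference was 0.00533, beside 0.00567 over all 3771 matched exons tested. The limma refit called 7 exons in 6 genes, 4 higher and 3 lower in Kn-0. That is 0.893% of the short exons, beside 1.51% of all skipped exons tested, of which 0.955% were higher and 0.557% lower in Kn-0. Without the limit on size 23 exons in 21 genes passed, 15 higher and 8 lower in Kn-0, which is 2.93%, beside 5.28% of all. All 7 called exons had the same sign under ABA. The difference of the ABA effect between the accessions was called for 0 of 784 exons in the limma refit, 39 had an unadjusted p under 0.05, beside 198 of all 3771 tested, and the smallest adjusted p over all skipped exons was 0.9002.

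The 34-base exon of AT5G65685, a UDP-glycosyltransferase, showed the widest gap of the 7. With the nearer next exon it was at 0.733, 0.343 and 0.579 in Kn-0 mock against 1, 1 and 0.971 in Col-0 mock, a difference of -0.439. The log2 odds ratio was -4.79 ± 1.096 (SE, adjusted p = 0.0102 in the limma refit). Under ABA it was at 0.656, 0.557 and 0.788 in Kn-0 against 0.914, 0.971 and 0.964 in Col-0. No Kn-0 library reached the lowest Col-0 library. The same exon with a more distant next exon gave the second of the 7 calls, at a difference of -0.231 in mock (adjusted p = 0.0107 in the limma refit, but between 0.0569 and 0.497 without one of the Col-0 mock libraries).

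SCA3 encodes the phage-type RNA polymerase of plastids, and its exon with a choice of donors had no skipping reads in Kn-0 mock. The 49-base version was at 1, 1 and 1 in Kn-0 mock, on 329 including and 0 skipping reads, against 0.848, 0.827 and 0.834 in Col-0 mock. The difference was 0.164 (log2 odds ratio 5.01 ± 1.13 SE, adjusted p = 0.00976 in the limma refit). Under ABA it was at 1, 1 and 0.967 in Kn-0 against 0.8, 0.862 and 0.801 in Col-0. The 51-base version shares the skipping reads and was at 1, 1 and 1 in Kn-0 mock against 0.933, 0.918 and 0.924 in Col-0 mock, a difference of 0.075 (adjusted p = 0.0104 in the limma refit). From the annotated start the frame is 993 codons with the 51-base version, 710 with the 49-base version and 976 with neither. Without Kn-0 ABA library 3, which alone among Kn-0 libraries had a level under 1, the adjusted p was 0.2995 for the 49-base and 0.321 for the 51-base version in the limma refit. Both versions were lower in every Col-0 library than in any Kn-0 library, although Col-0 levels too were 0.8 or more.

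AT1G49590, a zinc finger protein gene also called ZOP1, included a 50-base exon more often in Kn-0. It was at 0.388, 0.438 and 0.414 in Kn-0 mock against 0.23, 0.267 and 0.166 in Col-0 mock, and at 0.447, 0.492 and 0.348 in Kn-0 ABA against 0.232, 0.231 and 0.207 in Col-0 ABA. The log2 odds ratio in mock was 1.34 ± 0.22 (SE, adjusted p = 0.000563 in the limma refit). The exon shortens the frame to 146 codons, against 242 without it. The 48-base exon of the protein kinase gene AT5G50330 was at 0.983, 0.908 and 0.854 in Kn-0 mock against 0.716, 0.735 and 0.788 in Col-0 mock (difference 0.169, adjusted p = 0.0385 in the limma refit). Under ABA its accessions overlapped, at 0.858, 0.783 and 0.937 in Kn-0 against 0.828, 0.759 and 0.908 in Col-0. The call was lost without any one of the Col-0 mock libraries or without Kn-0 mock library 1 (adjusted p between 0.0528 and 0.326 in the limma refit) and in an unweighted limma fit (adjusted p = 0.151).

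A pair of the calls lay in 5′ UTRs. The 42-base exon of THY-2, a thymidylate synthase, was lower in Kn-0, at 0.508, 0.495 and 0.527 in mock against 0.676, 0.598 and 0.679 in Col-0 mock (difference -0.141, adjusted p = 0.00458 in the limma refit). Under ABA it was at 0.624, 0.565 and 0.545 in Kn-0 against 0.642, 0.672 and 0.637 in Col-0. The 46-base exon of AT1G61150, a LisH and RanBPM domain gene, was higher in Kn-0, at 0.304, 0.269 and 0.292 in mock against 0.168, 0.207 and 0.172 in Col-0 mock (difference 0.106, adjusted p = 0.0207 in the limma refit). Under ABA it was at 0.241, 0.235 and 0.249 in Kn-0 against 0.15, 0.122 and 0.172 in Col-0. In both genes the accessions were apart in ABA as in mock, though by less in THY-2. In an unweighted limma fit the adjusted p was 0.148 for THY-2 and 0.116 for AT1G61150, and the AT1G61150 call was also lost without mock library 1 or 3 of either accession (adjusted p between 0.0704 and 0.0937).

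Of the 23 exons, 16 differed by under 0.1, and those named here were chosen after their values were seen. The 14-base exon in the 5′ UTR of VAB2, a B subunit of the vacuolar proton pump, had almost no including reads in Kn-0. It was at 0.002, 0.002 and 0 in Kn-0 mock against 0.081, 0.058 and 0.088 in Col-0 mock, on 4 including and 2907 skipping reads in Kn-0 and 112 and 1238 in Col-0. Under ABA it was at 0, 0 and 0 in Kn-0 against 0.069, 0.052 and 0.058 in Col-0. The log2 odds ratio in mock was -5.92 ± 1.01 (SE, adjusted p = 0.000772 in the limma refit). The 27-base exon of FSD2, a chloroplast iron superoxide dismutase, was close to always included in Kn-0, at 1, 0.997 and 0.997 in Kn-0 mock against 0.943, 0.927 and 0.924 in Col-0 mock (adjusted p = 0.0471 in the limma refit). Its call was lost without any one of the mock libraries or without Col-0 ABA library 2 (adjusted p between 0.0578 and 0.237 in the limma refit). It keeps the frame, with 237 codons against 228.

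CYSC1, a mitochondrial cyanoalanine synthase that detoxifies cyanide, had its 35-base exon at 0.999 in all 3 Kn-0 mock libraries against 0.973, 0.978 and 0.977 in Col-0 mock (adjusted p = 0.000343 in the limma refit). In Col-0 its included form was not annotated while its skipping form was, and it was coding in only some transcripts. In the transcript followed, the frame has 137 codons with the exon and 94 without it. RRC1, an SR-like splicing regulator in light signalling, was lower in Kn-0 mock for its 46-base exon, at 0.874, 0.867 and 0.873 against 0.947, 0.947 and 0.906 in Col-0 mock (adjusted p = 0.0139 in the limma refit), while under ABA the accessions differed by -0.0013. The 51-base exon of AT1G15200, with its GC donor, was at 0.182, 0.185 and 0.153 in Kn-0 mock against 0.102, 0.111 and 0.049 in Col-0 mock (adjusted p = 0.00241 in the limma refit), and its frame has 276 codons, against 423 without it. Both were lost in an unweighted limma fit (adjusted p = 0.1798 for RRC1 and 0.105 for AT1G15200), and RRC1 also without Col-0 mock library 1 or 2 (adjusted p = 0.0818 and 0.0723). The other 10 exons had differences between -0.056 and 0.0847.

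**Figure D5:**
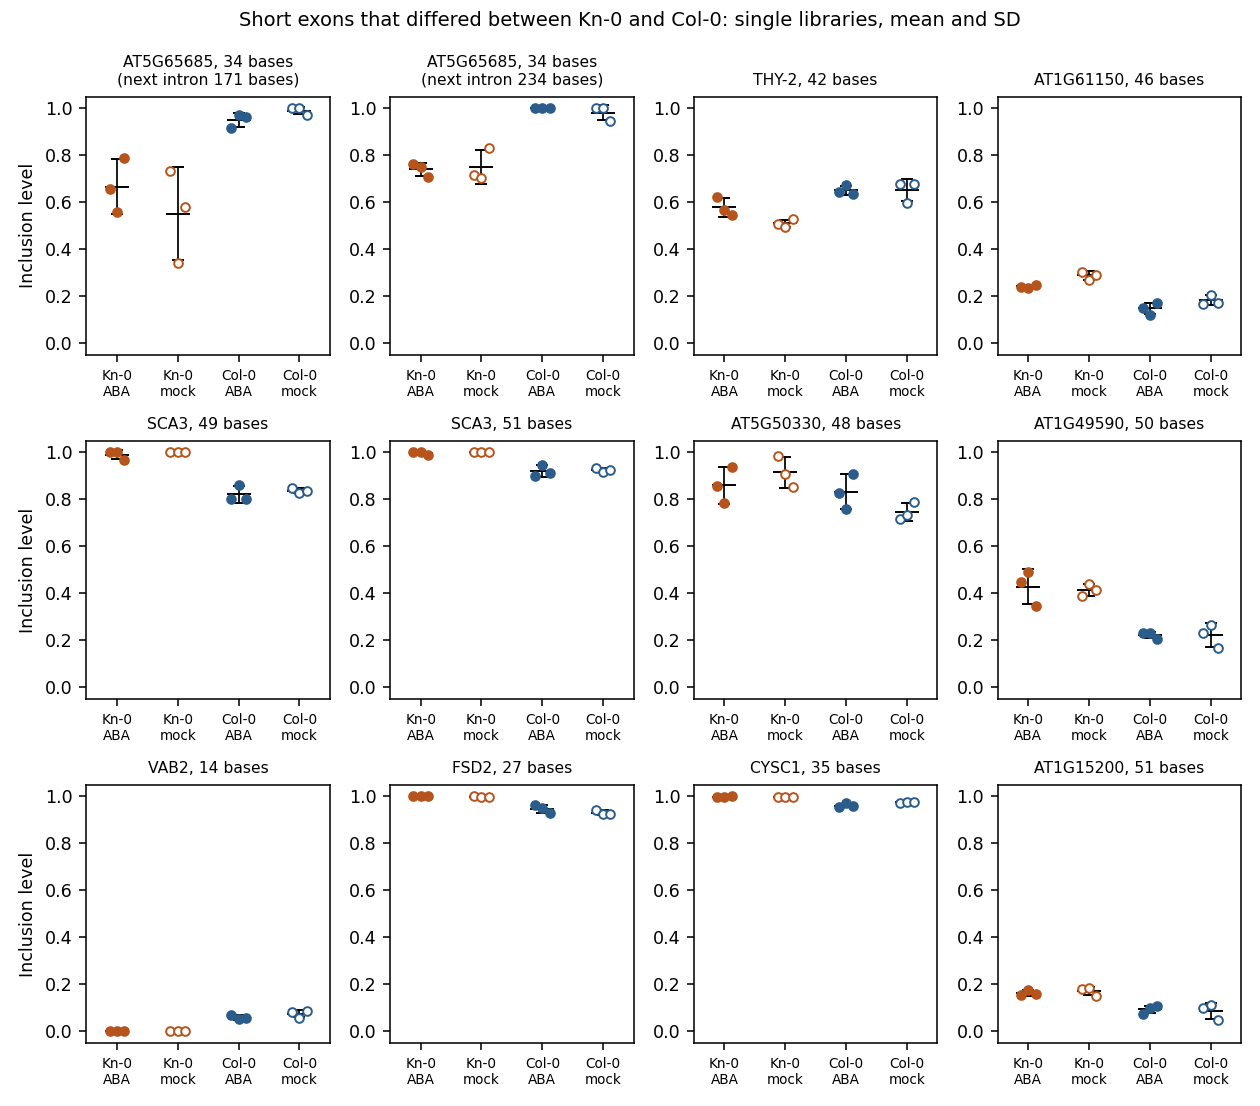
Inclusion level (y axis, 0 to 1) in each library for 12 exon entries that passed the test between accessions in mock, with Kn-0 in orange and Col-0 in blue, ABA as filled and mock as open points, and bars for the mean ± SD of 3 libraries. The SCA3, AT5G65685 and VAB2 exons separate the accessions in both treatments, and the AT5G50330 exon overlaps under ABA.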

How the data were processed

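The deposited splicing tables list skipped exons with junction reads and inclusion levels of 6 libraries per accession. They were made by the authors with rMATS, per the file names, with the build and version not given in the sources used here. STAR, featureCounts, DESeq2 and the build TAIR10 are named in the submitters' processing notes, with no role or version. Deposited p-value and FDR columns are the authors'. The deposited inclusion difference is a score, mock minus ABA. The gene tables hold the authors' deposited normalized mean signal, and the authors' log2 fold changes of ABA over mock with their errors. The sign of these fold changes matched the junction reads (r = 0.965 across 4975 genes in Kn-0 and 0.976 across 4672 in Col-0).

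Each cell holds 3 libraries. Where commas were lost, the reads were recovered by splitting the digits so that the deposited levels were met within 0.0005. Several splits fitted 1388 short entries in Kn-0 and 1267 in Col-0, of which 38 and 35 were tested for ABA. Such entries also entered the accession test, among them SCA3 (both versions), VAB2 and FSD2 in Kn-0. Wherever several splits fitted, the split with the most equal library totals was used, and the levels themselves are as deposited. The reads given for such entries, as for CCD1 and AT1G63290 in Col-0, rest on that choice. The reads of 1 entry per accession could not be recovered. Because the reads stand as text in shared cells and had to be recovered, the planned quasi-likelihood count test was replaced by limma 3.58.1 (R 4.3.3) on log2 of (including + 0.5)/(skipping + 0.5) reads with binomial weights, a trend and robust moderation, adjusted over all skipped exons tested. The Kn-0 coordinates do not follow TAIR10, so exons were matched by gene, strand, exon length and both intron lengths in place of the planned coordinates, and no Kn-0 positions or sequences are given. Col-0 positions fit TAIR10.1, from which sequences, annotation and reading frames were read with pysam 0.24.0.

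Chi-square over degrees of freedom between replicate libraries ran from 3.27 to 11.4, so that no library was a copy of another. The median tested short exon had 212.8 reads per library in Kn-0 and 199.3 in Col-0. An included exon of this length is seen through reads that can span 2 junctions, and whether alignment missed some was not tested. The same test was also run on simulated data with known changes in skipped exons of any length. Changes were placed only in exons away from both ends of the scale. Recovery was counted by adjusted p, without the limit on size. For ABA, at an adjusted p under 0.05, it recovered 41.8% of changes of 0.1 in Kn-0 and 26.9% in Col-0. For ABA changes of 0.2 it recovered 65.7% and 68.7%. Between the accessions in mock it recovered 41.8% of changes of 0.1 and 82.1% of changes of 0.2. An exon with a change near the call limit could thus be missed.

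The members, lists and rules were chosen with earlier results of these data known. Exons were named where called for ABA by either test (at most 15 per accession), where called between accessions (the 12 largest), where of at most 15 bases with an intermediate level in both accessions, or where in a listed gene. Alternatives were other read minimums, limits on size, unweighted fits, the deepest entry per exon and leaving out each library.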

Additional observations from a re-analysis of the deposited data

How the results depend on the processing

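No paired analysis was possible because the cells hold 3 libraries with no replicate number. The DESeq2 and TMM alternatives were not run, since the reads stand as text, 3 libraries to a cell with some commas lost, and had to be recovered. Counts of short exons called by the limma refit for ABA were 0 in Kn-0 and 0 in Col-0. Without a least difference they were 5 in Kn-0 and 1 in Col-0, and with one of 0.05 there was 1 in Kn-0. Leaving out each library gave 0 to 1 in Kn-0 (the 1 is AT5G53850 without Kn-0 mock library 1, adjusted p = 0.0131) and 0 to 0 in Col-0. With unweighted limma, 0 short exons had an adjusted p under 0.05 for ABA. Between the accessions in mock the count was 7, against 23 without a least difference, 16 with one of 0.05, and 14 where introns within 20 bases were matched, a setting chosen after seeing the data. Leaving out each library gave 4 to 10, with 4 without Col-0 mock library 1 and 4 without Col-0 mock library 3. The authors' rMATS calls in Kn-0 were 4, but 7 at a mean of 5 reads, 8 with no read minimum and 0 by the refit. In Col-0 they were 4, but 2 at a mean of 20 reads and 0 by the refit. The cause of these changes was not tested. The interaction count was 0 under every setting run. The differences of the library medians stayed positive, at 0.00667 to 0.022 in Kn-0 and 0.00467 to 0.0247 in Col-0 under other read minimums, and at 0.00283 to 0.0148 in Kn-0 and 0.00517 to 0.0152 in Col-0 when single libraries were left out.

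AT1G49590, VAB2, CYSC1, THY-2, AT1G15200 and the AT5G65685 exon with the nearer next exon passed in all 12 fits with a library left out, AT1G61150 and AT5G50330 in 8 and FSD2 in 5. For ABA, AT5G53850 passed in 1 of 6 such fits, PAS2 in 3, AT4G25672 in 2, ERD15 in 1, the 36-base exon of AT1G51200 in 4 and its 50-base exon in 6 of 6. Depth limits the test, since exons under 10 reads in a library were left out and those near it have wide errors.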

Other observations

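Exons that could not be matched with introns of equal length held several of the widest gaps between the accessions. Where the introns were allowed to differ by up to 20 bases, which was chosen after seeing the data, 920 short exons were tested. Of the 198 among them with an intron of another length, 6 (3.03%) were called in mock by the limma refit, against 8 of 722 (1.11%) with equal introns. Over all skipped exons the shares were 45 of 1012 (4.45%) and 60 of 3527 (1.70%). Whether the bases that differ bear on the inclusion was not tested.

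The 46-base coding exon of scpl1, a serine carboxypeptidase-like gene, was at 0.152, 0.176 and 0.166 in Kn-0 mock against 0.913, 0.827 and 0.869 in Col-0 mock, with an intron of 290 bases after it in Kn-0 and 289 in Col-0 (log2 odds ratio -5.14 ± 0.30 SE, adjusted p = 1.82e-10 in the limma refit). Under ABA it was at 0.324, 0.364 and 0.215 in Kn-0 against 0.891, 0.94 and 0.915 in Col-0. The accessions were far apart in both treatments. The 31-base exon of AT4G13040, an integrase-type DNA-binding (AP2/ERF-like) protein gene, was at 1 in all 3 Kn-0 mock libraries against 0.475, 0.444 and 0.458 in Col-0 mock, with an intron before it of 652 bases in Kn-0 and 641 in Col-0 (adjusted p = 8.06e-05 in the limma refit). The 44-base exon of SRT2, a sirtuin, was at 0.929, 0.903 and 0.954 in Kn-0 mock against 0.475, 0.468 and 0.59 in Col-0 mock (adjusted p = 1.52e-05 in the limma refit). Its introns before and after had 214 and 130 bases in Kn-0 and 218 and 127 in Col-0. Whether it is the same exon in both was not tested. The AT4G13040 and SRT2 exons reach a coding end. NiaP, a major facilitator superfamily transporter gene, had a 38-base 5′ UTR exon at 0.244, 0.417 and 0.41 in Kn-0 mock against 0.007, 0.022 and 0.016 in Col-0 mock (adjusted p = 0.000147 in the limma refit). AT2G23985 had a 25-base 5′ UTR exon that was lower in Kn-0, with a difference of -0.427, and AT4G10430, a TMPIT-like protein gene, a 49-base exon that was higher, with a difference of 0.343.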
